A study of Sus scrofa with 12 samples.

Results

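Vesicle trafficking and fusion genes were followed across 12 libraries from pig blood cells. The members are all rows of the deposited expression table whose symbol starts with VPS, SNX, STX, VAMP, SNAP, TRAPPC or SEC directly followed by a digit, or is a COPA, COPB, COPE, COPG or COPZ symbol. VAMP3 and VAMP5 were left out by the rule. This gave 62 of the 7480 genes in the table, and each of the 62 symbols is in the pig gene tables used here. RefSeq lists 136 protein-coding pig genes with such symbols, of which 60 are in the table, so statements on a complex cover only its measured subunits. The libraries form 3 groups of 4, labelled as untreated control, Salmonella treated, and treated with a miR-124 sponge and Salmonella. A microRNA sponge is made to soak up that microRNA, and it is named in the treatment labels while the titles of that group name miR-124 alone. All groups are labelled as peripheral blood mononuclear cells (PBMC) of Duroc x Landrace x Yorkshire piglets, 4 weeks old, with cells taken 12 h after treatment, and the design text names the bacterium as Salmonella Typhi. That text counts 20 piglets, 10 male and 10 female, and does not tie any library to an animal, so the p-values here reflect library-to-library spread alone, which may be technical.

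Membrane traffic moves cargo between compartments in coated carriers. COPII coats bud carriers from the endoplasmic reticulum (ER), COPI coats return them, and sorting nexins and retromer retrieve cargo from endosomes. Tethers such as HOPS and TRAPP then hold a carrier at its target, and SNARE proteins on both membranes (syntaxins, VAMPs and SNAP proteins) zip together to fuse them. ESCRT complexes bud membrane in the opposite direction, into multivesicular endosomes. In phagocytes these steps carry engulfed bacteria to lysosomes and deliver cytokines and granules to the surface, and Salmonella is known to live in a modified phagosome that draws on the same machinery.

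The table gives 1 log2 value per gene and library, with library medians from 5.11 to 5.31. Counts are not part of it, and sequencing depth is therefore unknown. A set of 169 olfactory receptor, taste receptor and keratin-associated symbols served as a silent set for blood, with a mean of 4.62 and a 95th percentile of 4.99. Only 43 of these symbols are in the pig gene tables used here, so the silent level is a rough guide. Of all 7480 genes, 399 (5.33%) are not in those pig gene tables. Changes of genes near the silent level may be compressed, which was not tested. Exact ties with another gene made up 65.1% to 71.4% of each sponge plus Salmonella column, against at most 0.0802% of any other column, and 27 to 34 of the 62 members were tied there. Treatment and this property of the columns cannot be told apart. Many defining lymphocyte, monocyte and platelet genes were measured in all libraries, but others, CD14, CD4 and MS4A1 among them, were not measured. CD3D, which encodes a CD3 chain of the T cell receptor complex, lay between 4.13 and 4.63 in the control and Salmonella libraries, at the silent level. CD3E lay between 7.65 and 7.87 in control. The platelet gene PF4 had group means from 4.48 to 4.86 and the B cell gene BLNK from 4.46 to 4.80, also near the silent level. The platelet gene PPBP had group means of at least 11.38. Genes of cells that a mononuclear fraction should hold few of were also high, with the haemoglobin gene HBA2 between 13.76 and 15.01.

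With Salmonella, 22 of the 62 members were called against control, meaning an adjusted p below 0.05 in limma with Benjamini-Hochberg adjustment over all 7480 genes. Of these 15 were higher and 7 lower. Over all genes 33.6% were called, 15.7% higher and 17.9% lower, and of the members 35.5% were called, 24.2% higher and 11.3% lower. The groups did not overlap for 26 members (41.9%), against 35.6% of all genes. Of the 62 members 16 were higher and 10 lower in this way, beside 15.7% and 19.9% of all genes. The median log2 difference of the members was 0.18, beside -0.02 over all genes. Centring each library on its median, which lowers every difference in this comparison by 0.09, gave 14 members higher and 11 lower, and moved the share of higher calls over all genes from 46.8% to 35.2%.

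**Figure D1:**
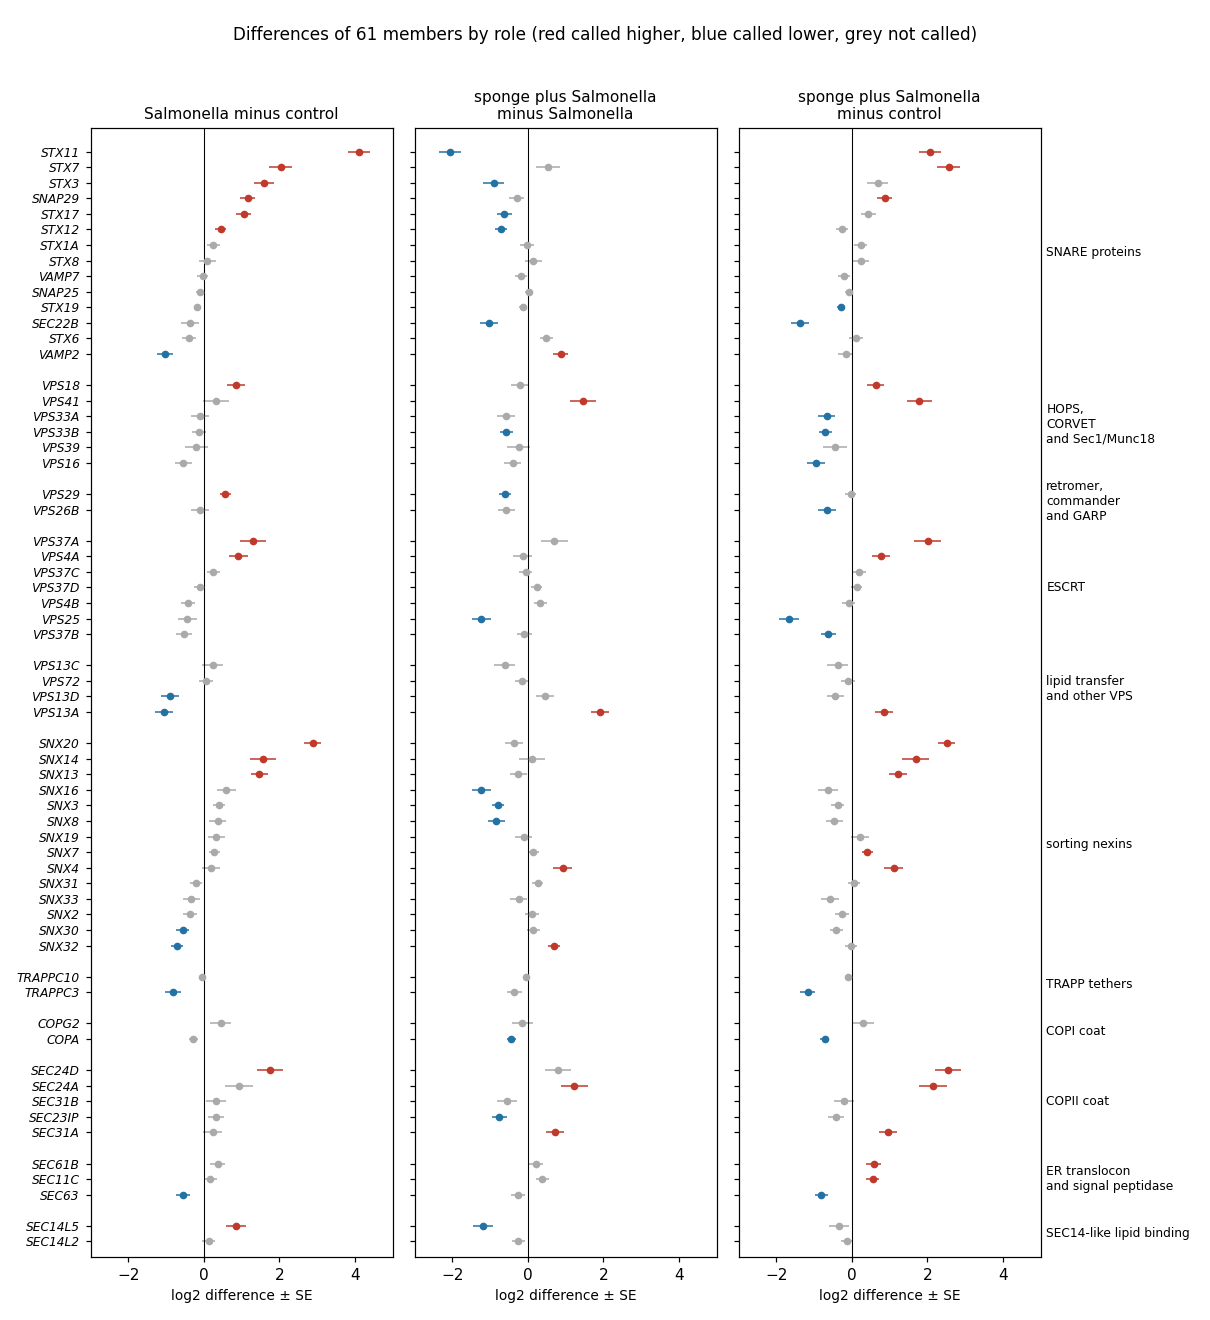
Log2 differences of 61 of the 62 members in the 3 comparisons, ordered by role, with horizontal bars for the standard error (SE) of the limma fit (4 libraries per group). Red points were called higher, blue points lower and grey points were not called. With Salmonella 15 members are red and 7 blue, and STX11 stands farthest to the right at 4.11.

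Between sponge plus Salmonella and Salmonella alone, 22 of the 62 members were called (35.5%), 7 higher (11.3%) and 15 lower (24.2%) with the sponge. Over all genes 25.0% were called, 11.9% higher and 13.2% lower. The groups did not overlap for 23 members (37.1%), against 23.8% of all genes. Of the 62 members 8 were higher and 15 lower in this way, beside 10.6% and 13.2% of all genes. The count of higher members dropped to 4 without Salmonella replicate 4. Between sponge plus Salmonella and control, 29 members were called, 18 higher and 11 lower, where 40.9% of all genes were called, 17.9% higher and 23.0% lower. In this comparison 30 members did not overlap between the groups (48.4%), against 39.7% of all genes. Of the 62 members 17 were higher and 13 lower in this way, beside 17.3% and 22.5% of all genes. Median centring moved the differences of this comparison by -0.12 and gave 15 higher and 20 lower members, with the share of higher calls over all genes going from 43.7% to 29.2%. The count of 11 lower members became 7 without control replicate 1. These comparisons share libraries with each other, so their values are set side by side below and no overlap is read from them. In all, 43 members were called in at least 1 comparison and 19 in none. Counts by role and by list of partner genes below are small and are to be read beside these shares of all genes. With Salmonella 46.7% of SNARE genes, 35.7% of sorting nexins, 28.6% of ESCRT genes and 16.7% of the HOPS group were called, against 33.6% of all genes. Of 121 measured partner genes 27 rose and 23 fell with Salmonella, beside 15.7% and 17.9% of all genes.

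SNARE genes held the largest rise among the members. Of 15, 6 rose with Salmonella (STX11, STX7, STX3, SNAP29, STX17 and STX12), 1 fell (VAMP2) and 8 were not called, with a median log2 difference of 0.09. STX11 encodes a syntaxin of cytotoxic lymphocytes and phagocytes whose loss in people causes familial haemophagocytic lymphohistiocytosis. Its log2 values were 8.00, 8.20, 8.21 and 8.38 in control, 11.76, 12.51, 12.38 and 12.60 with Salmonella, and 11.11, 10.66, 9.63 and 9.63 with sponge plus Salmonella. No 2 of the 3 groups overlapped, and the sponge libraries lay between the others. The log2 difference from control was 4.11 ± 0.29 (SE, n = 4 per group; 17.3-fold; adjusted p = 5.9e-07) with Salmonella and 2.06 ± 0.29 (adjusted p = 1.6e-04) with sponge plus Salmonella, and sponge plus Salmonella minus Salmonella was -2.05 ± 0.29 (adjusted p = 4.1e-04). The gene lies on chromosome 1, 21127871 to 21170321 (Sscrofa11.1), and overlaps a further annotated locus there.

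**Figure D2:**
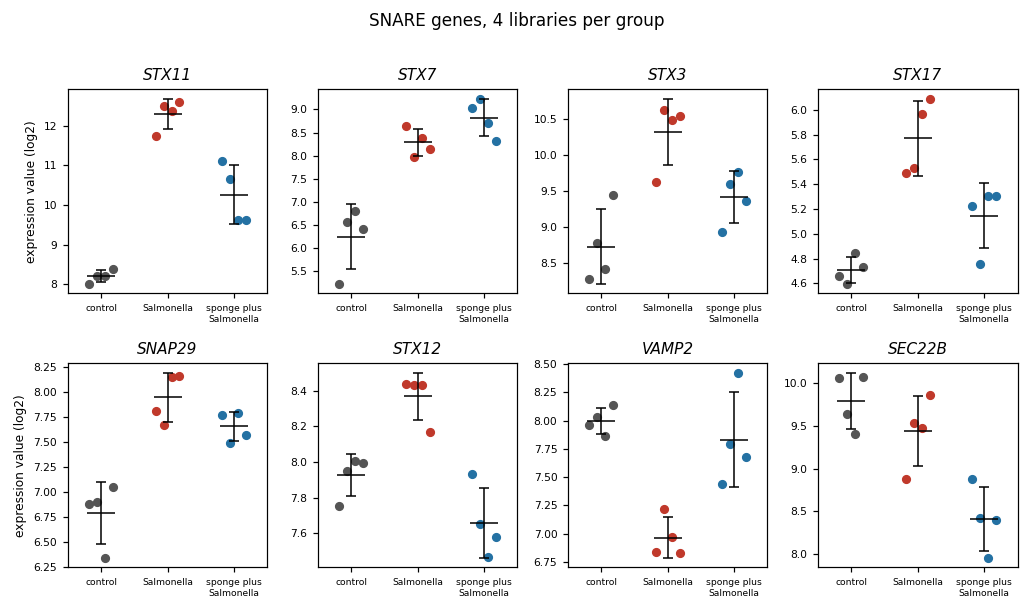
Log2 expression values of 8 SNARE genes in each library (points), with group mean and SD (bars, n = 4 libraries). The STX11 values are at least 11.76 in every Salmonella library and at most 8.38 in control, while VAMP2 runs the other way.

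STX7, a syntaxin of late endosomes and lysosomes, stood at 5.22, 6.57, 6.81 and 6.41 in control, at 8.64, 7.97, 8.39 and 8.15 with Salmonella and at 9.03, 9.24, 8.71 and 8.31 with sponge plus Salmonella. Control replicate 1 was the lowest library, and both treated groups lay wholly above control. The difference from control was 2.03 ± 0.31 (adjusted p = 1.8e-04) with Salmonella and 2.57 ± 0.31 (adjusted p = 6.5e-05) with the sponge added, and the treated groups overlapped (0.53 ± 0.31, adjusted p = 0.21). STX3 takes part in granule and cytokine release. It measured 8.28, 8.77, 8.41 and 9.44 in control, 9.63, 10.62, 10.48 and 10.54 with Salmonella, and 8.93, 9.59, 9.77 and 9.36 with sponge plus Salmonella. Its rise with Salmonella was 1.59 ± 0.28 (adjusted p = 5.2e-04), and the groups did not overlap. With the sponge it was lower than with Salmonella alone by a call that ended when any of 5 libraries was left out (-0.91 ± 0.28, adjusted p = 0.027; then 0.0601 to 0.0779 without sponge plus Salmonella replicates 1 or 4 or Salmonella replicates 2, 3 or 4).

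STX17 and SNAP29 form the SNARE pair that fuses autophagosomes with lysosomes. STX17 had values of 4.66, 4.59, 4.85 and 4.74 in control, close to the silent level, of 5.49, 5.53, 5.96 and 6.09 with Salmonella, and of 5.22, 4.76, 5.30 and 5.31 with sponge plus Salmonella. SNAP29 measured 6.88, 6.90, 6.34 and 7.05 in control, 7.81, 7.67, 8.15 and 8.17 with Salmonella, and 7.77, 7.49, 7.79 and 7.58 with the sponge. Both rose with Salmonella, with no overlap, STX17 by 1.06 ± 0.20 (adjusted p = 9.3e-04) and SNAP29 by 1.16 ± 0.20 (adjusted p = 4.4e-04). SNAP29 was also higher than control with sponge plus Salmonella (0.86 ± 0.20, adjusted p = 0.00314). STX17 was lower with the sponge than with Salmonella alone (-0.62 ± 0.20, adjusted p = 0.0323), and that call ended without sponge plus Salmonella replicate 2 or Salmonella replicates 3 or 4 (then adjusted p 0.0768 to 0.0965) and in a fit of these 2 groups only.

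STX12, a syntaxin of recycling endosomes, stood at 7.76, 7.95, 8.00 and 8.00 in control, 8.44, 8.43, 8.43 and 8.17 with Salmonella, and 7.93, 7.65, 7.47 and 7.58 with sponge plus Salmonella. The sponge libraries lay wholly below the Salmonella libraries (-0.71 ± 0.16, adjusted p = 0.00517). Its small rise with Salmonella (0.44 ± 0.16, adjusted p = 0.0407) rested on all libraries but 1, since the call ended without any control library or Salmonella replicates 1, 2 or 3 (then adjusted p 0.0528 to 0.11), and also with median centring.

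VAMP2, the synaptobrevin of regulated secretion, fell with Salmonella. It read 7.96, 8.03, 7.86 and 8.14 in control, 6.84, 7.22, 6.97 and 6.83 with Salmonella, and 7.44, 7.79, 8.43 and 7.68 with sponge plus Salmonella. The Salmonella libraries were below all others (-1.03 ± 0.20, adjusted p = 0.00143), the sponge libraries were higher than these by 0.87 ± 0.20 (adjusted p = 0.00757), and they overlapped control. SEC22B, a SNARE of the early secretory path that is also recruited to phagosomes, was lower with the sponge. Its values were 10.06, 9.63, 9.40 and 10.07 in control, 8.87, 9.53, 9.47 and 9.85 with Salmonella, and 8.87, 8.42, 7.96 and 8.41 with sponge plus Salmonella. All sponge libraries lay below control (-1.37 ± 0.24, adjusted p = 5.4e-04), and they met the Salmonella group at Salmonella replicate 1 (-1.02 ± 0.24, adjusted p = 0.00686). Among the other SNARE genes STX8, STX6 and VAMP7, all of endosomes and the trans-Golgi, were called in no comparison. VAMP7 had differences from control of -0.03 ± 0.16 and -0.21 ± 0.16. STX6 was higher in every sponge library than in any Salmonella library, but this was not called (0.49 ± 0.18, adjusted p = 0.0591). The neuronal genes STX1A and SNAP25 and the gene STX19 had group means of at most 5.35. STX19 lay near the silent level, at 4.75, 5.04, 4.71 and 4.70 in control, 4.54, 4.64, 4.67 and 4.68 with Salmonella, and 4.47, 4.65, 4.58 and 4.35 with sponge plus Salmonella. Both treated groups lay below control. It was called lower than control with the sponge (-0.29 ± 0.10, adjusted p = 0.0351), and lost that call on leaving out control replicates 1 or 2 or sponge plus Salmonella replicates 1 or 4 (then adjusted p 0.0532 to 0.106), and in a fit of the 2 groups only.

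Levels of blood cell markers moved between the same groups. Of 8 measured monocyte markers 6 were called higher with Salmonella and 0 lower, and their mean level ran from 7.93 to 8.60 in control, from 9.78 to 10.05 with Salmonella and from 8.98 to 9.50 with sponge plus Salmonella. Of 10 T cell markers 0 were higher and 9 lower with Salmonella, with mean levels of 9.03 to 9.45, 7.69 to 8.05 and 8.54 to 9.06 in the same order. B cell markers (5 measured, 1 higher and 3 lower) ran from 7.81 to 8.61, from 6.79 to 7.15 and from 7.66 to 8.16, and NK cell markers (5 measured, 0 higher and 4 lower) from 10.18 to 10.67, from 8.80 to 9.60 and from 8.70 to 9.42. Dendritic cell markers (6 measured, 0 higher and 3 lower) ran from 8.60 to 9.06, from 7.54 to 8.00 and from 7.84 to 8.33. Platelet markers (7 measured, 5 higher and 0 lower) ran from 7.67 to 7.96, from 8.28 to 8.80 and from 8.47 to 8.85. Neutrophil markers (8 measured, 2 higher and 1 lower) ran from 7.38 to 7.91, from 7.64 to 8.74 and from 7.32 to 7.77. Erythroid markers (4 measured, 1 higher and 0 lower) ran from 10.07 to 10.78, from 10.99 to 11.60 and from 9.07 to 11.12. With the sponge against Salmonella, 0 monocyte markers were called higher and 5 lower, 8 T cell markers higher and 0 lower, 3 B cell markers higher and 1 lower, 1 NK cell marker higher and 0 lower, 2 dendritic cell markers higher and 0 lower, 2 platelet markers higher and 1 lower, 0 neutrophil markers higher and 1 lower, and 0 erythroid markers higher and 3 lower. For sponge plus Salmonella against control the counts higher and lower were 5 and 0 for monocytes, 1 and 4 for T cells, 0 and 2 for B cells, 0 and 4 for NK cells, 0 and 4 for dendritic cells, 2 and 0 for platelets, 1 and 2 for neutrophils, and 1 and 0 for erythroid cells. None of these markers was listed at 0, since the lowest value of the table is 2.13. The part of cell composition in the differences of the members was not tested, and fewer cells of a type cannot be told apart from less RNA per cell in such bulk samples.

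**Figure D3:**
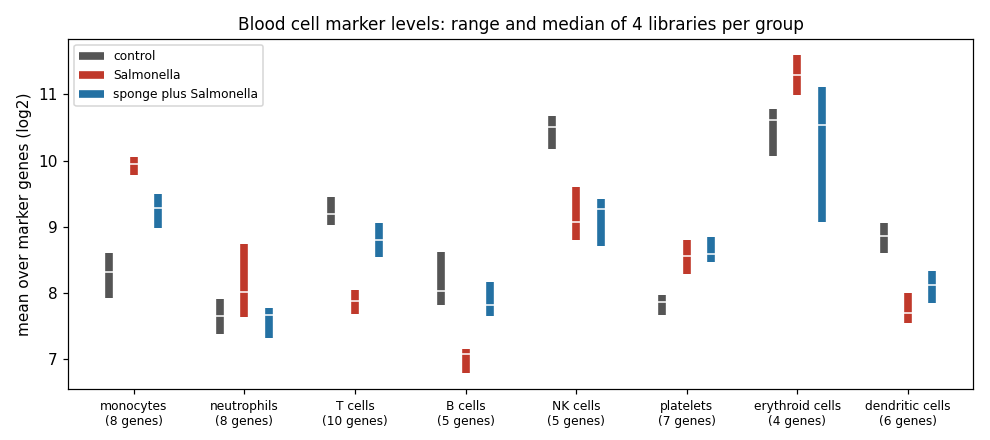
Mean log2 level over the measured marker genes of 8 blood cell types, with the range over the 4 libraries of each group (bars) and their median (white tick). The monocyte level is highest and the T cell level lowest in the Salmonella libraries, with the sponge libraries between them and control.

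The SNARE partners that recycle and regulate fusion were measured for 20 of 40 listed symbols. With Salmonella 5 rose and 1 fell, and with the sponge against Salmonella 4 were higher and 3 lower. LYST, the lysosomal trafficking regulator mutated in Chediak-Higashi syndrome, rose by 2.30 ± 0.40 (adjusted p = 5.1e-04), and sponge plus Salmonella minus control was 3.19 ± 0.40. The endosomal SNARE gene VTI1B rose by 1.52 ± 0.39 (adjusted p = 0.00722) and stood 1.66 ± 0.39 above control with the sponge. NAPA and NSF, which encode the pair that takes spent SNARE complexes apart, rose by 1.32 ± 0.24 (adjusted p = 7.9e-04) and 1.18 ± 0.23 (adjusted p = 0.00139). NSF was lower with the sponge than with Salmonella alone (-0.88 ± 0.23, adjusted p = 0.0138). Sponge plus Salmonella minus control was not called for NSF (0.30 ± 0.23, adjusted p = 0.319). The calls of NSF were not checked by leaving out libraries. STXBP5, which encodes tomosyn, an inhibitor of SNARE assembly, fell by 1.46 on the log2 scale (± 0.25, adjusted p = 5e-04) and was higher with the sponge than with Salmonella alone (1.18 ± 0.25, adjusted p = 0.00433). SYTL4, a synaptotagmin-like Rab effector, was lower with the sponge (-1.06 ± 0.31, adjusted p = 0.0236) and the SNARE gene YKT6 higher (0.89 ± 0.24, adjusted p = 0.0169). The first call ended without sponge plus Salmonella replicates 2 or 3 or Salmonella replicates 3 or 4 (then adjusted p 0.0538 to 0.0709) and the second without Salmonella replicate 2 (0.0559). The Salmonella mean of YKT6, 4.38, was below the silent mean. Against control, sponge plus Salmonella gave 4 higher and 2 lower, NAPA among them at 0.66 ± 0.24, a call that ended on leaving out control replicates 1 or 3 or sponge plus Salmonella replicates 1, 2 or 3 (then adjusted p 0.0637 to 0.132), in a fit of 2 groups and under median centring. In the list of synaptotagmins and the dysferlin family (8 of 19 measured), DYSF, a membrane repair gene, rose by 2.65 ± 0.29 with Salmonella (adjusted p = 1.3e-05). DYSF was lower with the sponge than with Salmonella alone (-1.53 ± 0.29, adjusted p = 0.00219). SYT11 (-1.28 ± 0.20) and SYT7 (-0.66 ± 0.14) fell, so that 1 rose and 2 fell, and with the sponge 2 were higher and 1 lower than with Salmonella and 2 higher and 2 lower than control. SYT13 was higher with the sponge than with Salmonella (0.64 ± 0.09, adjusted p = 4.8e-04) and than control (0.59 ± 0.09), but its group means of 4.29, 4.24 and 4.88 all lay below the silent set's 95th percentile and the sizes are uncertain. SYT7 was higher than with Salmonella (0.46 ± 0.14, adjusted p = 0.0236), a call that ended on leaving out any of 5 libraries (sponge plus Salmonella replicates 1 or 2 or Salmonella replicates 2, 3 or 4, then adjusted p 0.0511 to 0.0732), and its Salmonella mean of 4.32 was also below the silent mean. Against control DYSF was higher (1.12 ± 0.29) and SYT11 lower (-0.82 ± 0.20).

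HOPS genes encode the tether of lysosomes and late endosomes. Of 6 measured genes of this tether and its relatives, VPS18 rose with Salmonella and 5 were not called. VPS18 measured 5.90, 6.02, 5.37 and 6.10 in control, 6.59, 6.71, 6.75 and 6.75 with Salmonella, and 6.44, 6.19, 6.98 and 6.32 with sponge plus Salmonella. The groups did not overlap with Salmonella (0.85 ± 0.23, adjusted p = 0.0107). Its difference between sponge plus Salmonella and control (0.63 ± 0.23, adjusted p = 0.0398) lost the call without control replicates 1 or 3 or sponge plus Salmonella replicates 1 or 3 (then adjusted p 0.0583 to 0.123), in a fit of 2 groups, and under median centring or quantile normalization.

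Of the same 6 genes, 2 were higher and 3 lower with sponge plus Salmonella than in control. VPS41, the subunit that binds late endosomal membranes, gave 7.09, 7.62, 8.38 and 7.31 in control, 8.95, 7.96, 7.35 and 7.43 with Salmonella, and 9.30, 9.14, 9.22 and 9.90 with sponge plus Salmonella. Every sponge library was above every other library (1.79 ± 0.34 over control, adjusted p = 0.00103, and 1.47 ± 0.34 over Salmonella, adjusted p = 0.00686). VPS16, a core subunit, went from 10.19, 10.17, 9.74 and 10.05 in control and 8.97, 9.94, 9.58 and 9.46 with Salmonella to 9.42, 8.55, 8.98 and 9.40 with sponge plus Salmonella. It was lower than control in every sponge library (-0.95 ± 0.23, adjusted p = 0.0043). VPS33B, a Sec1/Munc18 protein of lysosome-related organelles, read 7.76, 7.38, 7.66 and 7.63 in control, 7.11, 7.48, 7.51 and 7.81 with Salmonella, and 7.01, 6.87, 6.91 and 6.86 with the sponge, where every library was below all others. Its difference from control was -0.70 ± 0.18 (adjusted p = 0.00678), while that from Salmonella (-0.57 ± 0.18, adjusted p = 0.0327) lost the call without sponge plus Salmonella replicates 2, 3 or 4 or Salmonella replicates 2, 3 or 4 (then adjusted p 0.0575 to 0.1) and in a fit of 2 groups. VPS33A, the HOPS counterpart, was called lower than control (-0.67 ± 0.23, adjusted p = 0.0324) with overlapping groups, a call that ended on leaving out control replicates 1 or 4 or sponge plus Salmonella replicates 1 or 4 (then adjusted p 0.0768 to 0.111). VPS39 was called in no comparison, with Salmonella values from 5.52 to 6.85.

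Retromer retrieves receptors from endosomes. VPS29, a subunit shared by retromer and retriever, stood at 10.37, 10.60, 10.78 and 10.51 in control, 11.14, 11.05, 11.24 and 11.11 with Salmonella, and 10.84, 10.65, 10.33 and 10.32 with sponge plus Salmonella. The Salmonella libraries were above all others, by 0.57 ± 0.15 over control (adjusted p = 0.00849), and the sponge libraries overlapped control and were lower than Salmonella by -0.60 ± 0.15 (adjusted p = 0.00986). Quantile normalization ended the second call and gave -0.35 (adjusted p = 0.0993). VPS26B, a cargo-sorting subunit, read 7.44, 6.395, 6.83 and 6.69 in control, 6.51, 6.99, 6.62 and 6.85 with Salmonella, and 6.39, 5.95, 6.12 and 6.24 with sponge plus Salmonella, where no library reached another group (-0.66 ± 0.23 against control, adjusted p = 0.034). This call ended on leaving out control replicates 1 or 3 or sponge plus Salmonella replicates 2, 3 or 4 (then adjusted p 0.0539 to 0.119) and in a fit of 2 groups. Among 13 of 30 listed partners, 2 rose and 3 fell with Salmonella. The partner list also holds CCDC22, COMMD and BLOC1S genes, which do not encode retromer subunits, and no WASH complex gene was measured. SORT1, a retromer cargo receptor, rose by 1.90 ± 0.27 (adjusted p = 1.1e-04) and was lower by -1.88 ± 0.27 with the sponge (adjusted p = 4.1e-04), where its mean of 7.88 stood beside 7.86 in control. BLOC1S2 (-1.24 ± 0.24) and COMMD7 (-0.86 ± 0.17) fell with Salmonella, and sponge plus Salmonella minus control was -1.38 ± 0.24 and -0.96 ± 0.17. With the sponge 1 partner was higher and 5 lower than with Salmonella, and 2 were higher and 6 lower than control. SORL1 was higher (0.79 ± 0.27, adjusted p = 0.0449) and IGF2R, the mannose 6-phosphate receptor gene, lower (-0.64 ± 0.19, adjusted p = 0.0251) than with Salmonella. The first call ended without sponge plus Salmonella replicates 2, 3 or 4 or any Salmonella library (then adjusted p 0.0586 to 0.132), and the second without sponge plus Salmonella replicates 3 or 4 or Salmonella replicates 2, 3 or 4 (then adjusted p 0.0564 to 0.0775). The SORL1 call also ended with variances without a trend, in a fit of 2 groups and under median centring, and quantile normalization reduced the IGF2R difference to -0.33 (adjusted p = 0.156). COMMD8 was higher than control by 1.42 ± 0.36 (adjusted p = 0.00664), from a control mean of 3.96 below the silent mean.

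Of 7 measured ESCRT genes, VPS37A and VPS4A rose with Salmonella and 5 were not called. VPS37A, an ESCRT-I subunit, read 4.99, 6.32, 6.97 and 5.72 in control, 7.95, 7.0, 7.45 and 6.81 with Salmonella, and 8.30, 7.95, 7.90 and 7.87 with sponge plus Salmonella. Salmonella overlapped control between 6.81 and 6.97 (1.30 ± 0.35, adjusted p = 0.0107), and the sponge libraries were wholly above control (2.0 ± 0.35, adjusted p = 6.2e-04). VPS4A, the ATPase that disassembles ESCRT-III, was 5.31, 5.94, 6.08 and 5.50 in control, 6.89, 6.58, 6.22 and 6.79 with Salmonella and 6.82, 6.59, 6.11 and 6.39 with the sponge. Both treated groups lay above control, by 0.91 ± 0.25 (adjusted p = 0.0109) and 0.77 ± 0.25 (adjusted p = 0.0223). The latter call ended on leaving out control replicates 1 or 4 or sponge plus Salmonella replicates 1 or 2 (then adjusted p 0.0524 to 0.0699). Its paralog VPS4B had a difference of -0.42 ± 0.17 with Salmonella that was not called (adjusted p = 0.077).

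VPS25, the ESCRT-II subunit that links to ESCRT-III, was lower with the sponge. It went from 8.52, 8.36, 7.83 and 8.35 in control and 7.47, 7.85, 7.90 and 8.09 with Salmonella to 7.24, 6.31, 6.03 and 6.81 with sponge plus Salmonella. The sponge libraries lay below every other library (-1.67 ± 0.25 against control, adjusted p = 2.6e-04, and -1.23 ± 0.25 against Salmonella, adjusted p = 0.00367). VPS37B was called lower than control in overlapping groups (-0.63 ± 0.20, adjusted p = 0.0237), which ended on leaving out control replicates 1, 3 or 4 or sponge plus Salmonella replicates 1 or 4 (then adjusted p 0.0512 to 0.0724). VPS37C and VPS37D were called in no comparison. Among 8 of 24 listed ESCRT partners, 4 rose and 1 fell with Salmonella, with CHMP5, an ESCRT-III component, at 3.21 ± 0.27 (adjusted p = 1.6e-06), STAM2 at 1.18 ± 0.23 and CHMP1A at 0.85 ± 0.16. With the sponge against Salmonella 0 were higher and 3 lower, namely CHMP5 (-1.09 ± 0.27, adjusted p = 0.00965), STAM2 (-0.72 ± 0.23, adjusted p = 0.0316) and CHMP1A (-0.66 ± 0.16, adjusted p = 0.00899). The call of STAM2 ended without sponge plus Salmonella replicates 3 or 4 or Salmonella replicates 2, 3 or 4 (then adjusted p 0.068 to 0.0901). Against control 3 partners were higher and 1 lower with sponge plus Salmonella, led by CHMP5 at 2.12 ± 0.27. STAM was lower (-0.96 ± 0.17, adjusted p = 5.8e-04), and CHMP4C higher (0.67 ± 0.21, adjusted p = 0.0205) by a call that ended on leaving out control replicates 1 or 3 or sponge plus Salmonella replicate 2 (then adjusted p 0.0507 to 0.0589), from a control mean of 4.34 below the silent mean.

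VPS13 proteins are bridges that carry lipids between organelles. VPS13A gave 4.75, 5.17, 5.73 and 4.84 in control, 3.50, 4.01, 4.15 and 4.59 with Salmonella, and 5.86, 5.88, 6.18 and 5.99 with sponge plus Salmonella. The 3 groups did not overlap, with Salmonella lowest and the sponge highest. Salmonella minus control was -1.06 ± 0.24 (adjusted p = 0.00376), sponge plus Salmonella minus Salmonella 1.92 ± 0.24 (adjusted p = 1.9e-04), and sponge plus Salmonella minus control 0.86 ± 0.24 (adjusted p = 0.0117). The Salmonella mean of 4.06 was below the silent mean, so these sizes are uncertain. VPS13D fell from 5.98, 5.71, 5.71 and 6.03 to 4.78, 5.0, 4.69 and 5.38 (-0.89 ± 0.24, adjusted p = 0.00949), and the sponge libraries were at 5.62, 4.94, 5.88 and 5.25 and were called against neither group. VPS13C was not called in any comparison, and neither was VPS72, a histone chaperone that shares only the name with the others.

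Among 14 sorting nexins, 3 rose and 2 fell with Salmonella, and 9 were not called. SNX20, which binds a selectin ligand of leukocytes, stood at 4.50, 4.68, 4.09 and 4.74 in control, 7.07, 7.34, 7.36 and 7.76 with Salmonella, and 6.98, 7.21, 7.17 and 6.71 with sponge plus Salmonella. Both treated groups were far above control and overlapped each other (-0.37 ± 0.23, adjusted p = 0.246). The difference from control was 2.88 ± 0.23 (adjusted p = 1.3e-06) with Salmonella and 2.52 ± 0.23 (adjusted p = 2.1e-05) with the sponge, from a control mean of 4.50 that lay below the silent mean, so the folds are uncertain in size. SNX20 lies on chromosome 6, 34176753 to 34188233.

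SNX13 and SNX14 are related nexins of the ER that contact lipid droplets or endosomes. SNX14 values were 5.99, 7.29, 7.59 and 6.29 in control, 9.0, 8.36, 8.38 and 7.70 with Salmonella and 8.75, 8.77, 8.03 and 8.36 with sponge plus Salmonella. SNX13 values were 5.01, 5.95, 5.36 and 5.81, then 6.80, 7.07, 6.97 and 7.18, then 6.91, 6.82, 6.81 and 6.49. Neither gene overlapped control in either treated group. SNX14 rose by 1.57 ± 0.35 (adjusted p = 0.00289) and SNX13 by 1.47 ± 0.23 (adjusted p = 2.5e-04), and sponge plus Salmonella minus control was 1.69 ± 0.35 (adjusted p = 0.00165) and 1.22 ± 0.23 (adjusted p = 9.6e-04).

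**Figure D4:**
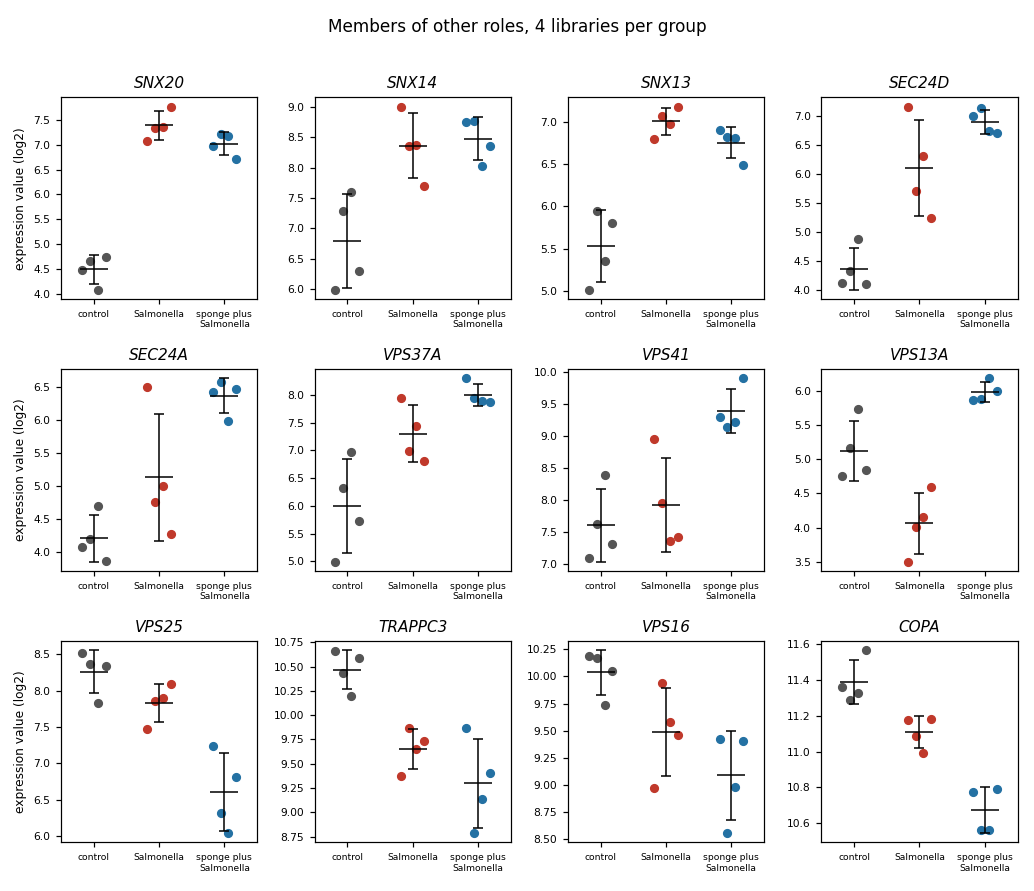
Log2 expression values of 12 members outside the SNARE family in each library (points), with group mean and SD (bars, n = 4 libraries). SNX20 is at 6.71 or more in every treated library and at most 4.74 in control, and VPS25 is lower in every sponge library than in any other.

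The falling nexins were SNX32 and SNX30. SNX32 read 5.16, 5.10, 4.91 and 4.58 in control, 4.30, 4.31, 4.13 and 4.18 with Salmonella and 4.67, 4.77, 4.87 and 5.40 with the sponge, all near the silent level. The Salmonella group was below both others (-0.71 ± 0.16, adjusted p = 0.00346, against control, and sponge plus Salmonella minus Salmonella 0.70 ± 0.16, adjusted p = 0.00646). SNX30, a partner in recycling endosomes, went from 8.17, 8.20, 7.86 and 7.83 in control to 7.56, 7.39, 7.29 and 7.58 with Salmonella, with no overlap, and was 7.79, 7.75, 7.43 and 7.44 with the sponge (Salmonella minus control -0.56 ± 0.17, adjusted p = 0.0191). This call ended on leaving out control replicates 1 or 2 or Salmonella replicate 3 (then adjusted p 0.0571 to 0.0622). The related recycling gene SNX4 differed only between sponge and other libraries, at 5.86, 6.58, 6.56 and 6.08 in control, 6.91, 6.33, 6.55 and 6.06 with Salmonella, and 7.82, 7.23, 7.08 and 7.39 with the sponge. It was higher than control by 1.11 ± 0.25 (adjusted p = 0.00299) and than Salmonella by 0.92 ± 0.25 (adjusted p = 0.0157), the last ending without Salmonella replicate 4 (0.0502). SNX7, near the silent level, was called 0.41 ± 0.15 higher than control with the sponge, and this ended without any control library or sponge plus Salmonella replicates 1 or 2 (then adjusted p 0.0528 to 0.0924), with variances without a trend and under both other scalings, median centring giving 0.29 (adjusted p = 0.135).

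Endosomal nexins SNX16, SNX8 and SNX3 were lower with the sponge than with Salmonella alone. SNX16 went from 8.07, 8.13, 8.18 and 7.82 with Salmonella to 7.44, 6.63, 6.05 and 7.17 (-1.23 ± 0.26, adjusted p = 0.00388), with control at 7.29, 7.74, 7.27 and 7.49. SNX8 went from 6.53, 6.76, 6.71 and 7.21 to 6.18, 6.10, 5.50 and 6.10 (-0.83 ± 0.22, adjusted p = 0.0147), with control at 6.39, 6.25, 6.58 and 6.50. SNX3, which recruits retromer, went from 12.62, 12.82, 12.92 and 12.28 to 12.00, 12.05, 11.66 and 11.81 (-0.78 ± 0.16, adjusted p = 0.00349), with control at 12.13, 12.21, 12.49 and 12.21. In none of these did the sponge and Salmonella groups overlap, and none was called between either treated group and control. SNX2, SNX19, SNX31 and SNX33 were called in no comparison.

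TRAPPC3, a core subunit of the TRAPP tether of the Golgi, was lower in both treated groups. Its values were 10.66, 10.43, 10.20 and 10.59 in control, 9.37, 9.86, 9.66 and 9.73 with Salmonella, and 9.87, 8.78, 9.14 and 9.41 with sponge plus Salmonella. No treated library reached the control range. The differences were -0.81 ± 0.21 (adjusted p = 0.0072) and -1.17 ± 0.21 (adjusted p = 6.2e-04). TRAPPC10 was at the silent level in all groups. Of 16 measured among 33 listed tether genes, 3 rose and 4 fell with Salmonella. The Golgi tether genes COG1 (-1.22 ± 0.23, adjusted p = 0.00109) and COG6 (-0.78 ± 0.22, adjusted p = 0.0139) fell and the golgin gene GOLGA5 rose (0.76 ± 0.17, adjusted p = 0.00341). Sponge plus Salmonella against control had 3 higher and 5 lower, with the exocyst gene EXOC8 at 1.44 ± 0.23 (adjusted p = 3.2e-04), the golgin gene GCC2 at 1.17 ± 0.26 and COG1 at -1.20 ± 0.23. Against Salmonella, 2 were higher and 1 lower. EXOC6B was lower (-0.46 ± 0.11, adjusted p = 0.01). GCC2 (0.78 ± 0.26, adjusted p = 0.0431) and EXOC8 (0.77 ± 0.23, adjusted p = 0.0242) were higher, but GCC2 lost its call without sponge plus Salmonella replicates 3 or 4 or any Salmonella library (then adjusted p 0.0525 to 0.0918), with variances without a trend, in a fit of 2 groups and under both other scalings, and EXOC8 without sponge plus Salmonella replicates 2 or 3 or Salmonella replicates 2, 3 or 4 (then adjusted p 0.0568 to 0.08) and in a fit of 2 groups. EXOC6B, GCC2 and EXOC8 had control means of 4.52, 4.57 and 4.08, below the silent mean, so their sizes are uncertain.

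Of 5 COPII coat genes measured, SEC24D rose with Salmonella and 4 were not called, while sponge plus Salmonella against control had 3 higher and 0 lower. SEC24 proteins are the cargo-binding layer of the coat. SEC24D values were 4.13, 4.33, 4.88 and 4.11 in control, 7.17, 5.71, 6.32 and 5.25 with Salmonella, and 7.01, 7.14, 6.75 and 6.72 with sponge plus Salmonella. SEC24A values were 4.07, 4.19, 4.70 and 3.86, then 6.50, 4.75, 4.99 and 4.27, then 6.42, 6.58, 5.98 and 6.47. In both genes Salmonella replicate 1 was the highest of its group and replicate 4 the lowest, and the sponge libraries lay wholly above control. SEC24D rose by 1.75 ± 0.35 with Salmonella (adjusted p = 0.00141) and was 2.54 ± 0.35 above control with the sponge (adjusted p = 1.3e-04). SEC24A was 2.16 ± 0.37 above control with the sponge (adjusted p = 5.1e-04), and its difference with Salmonella was not called (0.93 ± 0.37, adjusted p = 0.0653). Sponge plus Salmonella minus Salmonella was 1.23 ± 0.37 for SEC24A (adjusted p = 0.0247), a call that ended without sponge plus Salmonella replicates 2 or 4 or Salmonella replicates 2, 3 or 4 (then adjusted p 0.056 to 0.0809). The control means of both, 4.36 and 4.20, lay below the silent mean, so the sizes are uncertain. In the annotation SAR1B overlaps the SEC24A locus, and reads of overlapping genes may not be told apart. The same limit holds for SEC24D (with MYOZ2), VPS37A (with CNOT7 and MTMR7), COPA (with NCSTN) and SEC31B (with WNT8B).

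SEC31A, of the outer COPII layer, read 8.41, 9.03, 9.52 and 8.66 in control, 9.67, 8.87, 9.33 and 8.69 with Salmonella, and 9.89, 9.67, 10.11 and 9.79 with the sponge. The sponge group was higher than control (0.96 ± 0.25, adjusted p = 0.00678), and its call against Salmonella (0.72 ± 0.25, adjusted p = 0.0436) ended without any sponge library or Salmonella replicates 2, 3 or 4 (then adjusted p 0.0547 to 0.127) and with variances without a trend. SEC23IP, which binds the inner coat at ER exit sites, went from 8.01, 8.10, 8.02 and 8.49 with Salmonella to 7.87, 7.49, 6.88 and 7.36 with the sponge, beside 7.87, 7.73, 7.64 and 8.06 in control. The sponge and Salmonella groups did not overlap (-0.75 ± 0.21, adjusted p = 0.0179), and this call ended without sponge plus Salmonella replicate 3 or Salmonella replicate 4 (then adjusted p 0.0504 to 0.0595). SEC31B was called in no comparison.

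COPA, the alpha subunit of the COPI coat, was lower with the sponge. It stood at 11.36, 11.29, 11.33 and 11.57 in control, 11.18, 11.09, 10.99 and 11.18 with Salmonella, and 10.78, 10.56, 10.56 and 10.79 with sponge plus Salmonella. No groups overlapped, in falling order from control to sponge. Salmonella minus control was not called (-0.28 ± 0.13, adjusted p = 0.101), sponge plus Salmonella minus control was -0.72 ± 0.13 (adjusted p = 6e-04), and the difference from Salmonella (-0.44 ± 0.13, adjusted p = 0.0204) lost its call without sponge plus Salmonella replicate 3 or Salmonella replicate 4 (then adjusted p 0.0503 to 0.0548), in a fit of 2 groups and under quantile normalization, which gave -0.18 (adjusted p = 0.279). COPG2 was called in no comparison. Of 25 measured among 38 listed COPI and COPII partners and cargo receptors, 6 rose and 5 fell with Salmonella. The cargo receptor genes TMED7 (1.74 ± 0.41), ERGIC2 (1.67 ± 0.43) and ERGIC1 (1.42 ± 0.36) rose, each with adjusted p of at most 0.0077, and stood at 2.06 ± 0.41, 3.02 ± 0.43 and 2.53 ± 0.36 above control with the sponge. The control mean of ERGIC2 was 4.15, below the silent mean. SAR1B, the GTPase that starts COPII budding, was lower with the sponge than with Salmonella alone (-1.32 ± 0.23, adjusted p = 0.00123), as was MIA3, a receptor for large cargo (-1.43 ± 0.31, adjusted p = 0.00451). ERGIC2 was higher (1.36 ± 0.43, adjusted p = 0.0317), which ended without sponge plus Salmonella replicates 2 or 3 or Salmonella replicates 2, 3 or 4 (then adjusted p 0.0651 to 0.0968). In that comparison 3 partners were higher and 4 lower, and against control 5 were higher and 7 lower.

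Clathrin and its adaptors, which bud carriers from the plasma membrane and trans-Golgi, were measured for 20 of 46 listed symbols. With Salmonella 5 rose and 4 fell. GGA2, an adaptor of lysosomal sorting, fell by 1.66 on the log2 scale (± 0.17, adjusted p = 6.8e-06), while AP1S1 (1.62 ± 0.26, adjusted p = 2.7e-04) and PICALM (1.18 ± 0.24, adjusted p = 0.00179) rose. The clathrin heavy chain gene CLTC was higher with the sponge than with Salmonella (1.40 ± 0.34, adjusted p = 0.00921) and than control (1.77 ± 0.34), from a control mean of 4.30 below the silent mean, so these sizes are uncertain. AP3D1, of the lysosomal adaptor AP-3, was lower than Salmonella (-1.11 ± 0.16, adjusted p = 4.1e-04). Sponge against Salmonella had 4 higher and 1 lower, and sponge plus Salmonella against control 5 higher and 7 lower, with PICALM at 1.75 ± 0.24 and AP1S1 at 1.40 ± 0.26. The adaptor gene GGA1 was higher with the sponge than with Salmonella (0.70 ± 0.19, adjusted p = 0.0158), a call that ended without Salmonella replicate 2 (0.0554), and its control and Salmonella means of 4.36 and 4.43 were below the silent mean.

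Among ER genes, SEC63 fell and the others did not. SEC63, which helps proteins enter the ER, was 7.80, 7.98, 7.91 and 7.50 in control, 7.42, 6.87, 7.29 and 7.38 with Salmonella, and 6.98, 7.14, 6.81 and 7.03 with sponge plus Salmonella. Control was above both treated groups. The call with Salmonella (-0.56 ± 0.18, adjusted p = 0.0294) ended on leaving out control replicates 1, 2 or 3 or Salmonella replicates 2 or 3 (then adjusted p 0.0527 to 0.097), while sponge plus Salmonella minus control was -0.81 ± 0.18 (adjusted p = 0.00323). SEC61B, of the translocation channel, and SEC11C, of the signal peptidase, were higher with the sponge than control, at 0.58 ± 0.20 (adjusted p = 0.0284) and 0.56 ± 0.17 (adjusted p = 0.0172). The first ended on leaving out control replicates 1 or 4 or sponge plus Salmonella replicates 1 or 2 (then adjusted p 0.0593 to 0.0972) or with median centring, and the second without control replicate 1 (0.062). Of 11 measured among 22 listed partners, 1 rose and 3 fell with Salmonella. The signal peptidase gene SPCS3 rose by 2.04 ± 0.24 (adjusted p = 2.1e-05) and was lower with the sponge than with Salmonella alone (-1.33 ± 0.24, adjusted p = 0.0016). SSR4 (-1.25 ± 0.18) and SRPRB (-1.23 ± 0.19), of the translocon and the signal recognition receptor, fell. With the sponge 0 partners were higher and 2 lower than Salmonella, and 1 was higher and 4 lower than control. DNAJC3, an ER stress chaperone gene, was lower than Salmonella (-1.34 ± 0.37, adjusted p = 0.0177), which ended without sponge plus Salmonella replicate 3 or Salmonella replicates 3 or 4 (then adjusted p 0.0522 to 0.0582). Against control it stood at -1.50 ± 0.37, SSR4 at -1.40 ± 0.18 and SRPRB at -1.39 ± 0.19.

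SEC14L5, a SEC14-like gene, moved up with Salmonella and was lower with the sponge. It read 5.73, 5.78, 5.25 and 5.88 in control, 6.38, 6.32, 6.58 and 6.74 with Salmonella, and 5.24, 5.36, 4.69 and 5.96 with sponge plus Salmonella. The Salmonella libraries were above all others. The rise was 0.85 ± 0.27 (adjusted p = 0.0243), a call that ended on leaving out control replicate 3 or Salmonella replicates 3 or 4 (then adjusted p 0.0555 to 0.0701), and sponge plus Salmonella minus Salmonella was -1.19 ± 0.27 (adjusted p = 0.00569). SEC14L2 was at the silent level in all groups.

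Within groups, some orders of the libraries recurred among the members, and they recurred over all genes as well. In 9 members control replicate 1 was the lowest and Salmonella replicate 1 the highest of its group (14.5%, against 9.05% of all genes), among them STX7, SNX14, VPS37A, VPS41 and SEC31A. In 13 members control replicate 3 and Salmonella replicate 1 were both the lowest (21.0%, against 16.2% of all genes), among them TRAPPC3, VPS16, VPS25 and SEC22B. In 32 of the 62 members sponge plus Salmonella replicate 1 was the highest of its group (51.6%, against 33.4% of all genes). In the annotation of Sscrofa11.1, 61 members have coordinates and 18 overlap a further annotated gene. SEC63 and SNX3 lie 227845 bases apart on chromosome 1, and VPS37D and STX1A 22856 bases apart on chromosome 3. SEC63 fell with Salmonella while SNX3 was not called, and neither VPS37D nor STX1A was called in any comparison.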

How the data were processed

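Single-read RNA sequencing (50 bases) is the stated method for the 12 libraries. RNA extraction with a PAXgene kit and Illumina TruSeq preparation are named per the labels' protocols. Bowtie, the Sscrofa11.1 build and R 3.4.2 are listed per the submitters' processing notes. How reads were counted, normalized and filtered into genes is not stated there. The authors deposited log-scale values, read here as log2 although no base is named, and they ran from 2.13 to 15.01. The value 15.01 was the highest in every Salmonella column and in sponge plus Salmonella replicates 2 and 4, where HBA2 held it. The value 2.13 was the lowest in Salmonella replicates 2, 3 and 4. Whether the table holds sequencing values of these libraries could not be settled.

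All 12 libraries entered 1 limma fit (version 3.58.1, R 4.3.3) of 3 group means on the log2 values, with variances moderated with a trend on the mean. Benjamini-Hochberg adjustment ran over all 7480 genes, with no filter on low values, and a gene with adjusted p below 0.05 was called. The fit was tested on simulated data. Groups and replicate numbers came from the titles. Members, lists, roles and tests were chosen with earlier results of these data known.

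Values in every library are given for called members whose 2 groups do not overlap, the 10 largest rises and 10 largest falls of each comparison. Further called members are named with their differences, as is the member with the smallest p of each role, and the rest by range and count. Of each partner list the 3 called genes with the largest absolute differences per comparison are named. NSF, and values printed beyond this rule, were chosen after their values were seen. Partner and marker lists were the SNARE, synaptotagmin and dysferlin, tether, coat, clathrin, ESCRT, retromer and ER lists and 8 cell types. Alternatives were variances without a trend, fits of 2 groups, median centring, quantile normalization, a mean of at least 5, a replicate block, leaving out each library, and a looser reading of the symbol rule. Coordinates are from RefSeq. Values of 1 member are not reported here, though it is included in the counts.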

Additional observations from a re-analysis of the deposited data

Results flagged for a closer look

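In 8 of 183 groups of 4 libraries (61 members in 3 groups) 1 library stood apart, its gap to the nearest of the others taking a larger part of the group's range than Dixon's critical value allows. Chance flags about 1 in 20 such groups, and here it was 4.37%. In control, VPS39 was at 6.23 in replicate 3 against 6.69 to 6.75 and STX19 at 5.04 in replicate 2 against 4.70 to 4.75. With Salmonella, STX12 was at 8.17 in replicate 4 against 8.43 to 8.44, SEC31B at 6.16 in replicate 3 against 5.55 to 5.58, STX3 at 9.63 in replicate 1 against 10.48 to 10.62, and VPS13C at 6.58 in replicate 4 against 6.15 to 6.20. With sponge plus Salmonella, SNX8 was at 5.50 in replicate 3 against 6.10 to 6.18 and STX17 at 4.76 in replicate 2 against 5.22 to 5.31.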

How the results depend on the processing

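Depth is unknown, so counting error is not given. No called member changed direction under any alternative run. Of the members called, 18 of 22 (Salmonella minus control), 12 of 22 (sponge plus Salmonella minus Salmonella) and 20 of 29 (sponge plus Salmonella minus control) kept the call under every alternative that tested them. Median centring raised the count of lower members from 7 to 11 with Salmonella and from 11 to 20 for sponge plus Salmonella against control. Leaving out each library gave 13 to 16 higher and 5 to 8 lower members with Salmonella, 4 to 8 higher and 10 to 15 lower for the sponge against Salmonella, and 13 to 18 higher and 7 to 12 lower for sponge plus Salmonella against control. The other alternatives kept each count within 1.5 times. The titles share replicate numbers, but same-numbered libraries did not deviate together: 2 of 12 such pairs correlated above 0.1 (lowest -0.36, highest 0.38), and a library matched its own number best in 4 of 24 cases. With the replicate block the counts were 14 higher and 6 lower, 7 higher and 14 lower, and 18 higher and 10 lower, in the order above. The block also ended calls not marked so above (then adjusted p 0.0519 to 0.0755). These were STX12 and SEC63 for Salmonella minus control, and VPS33B for sponge plus Salmonella minus Salmonella. For sponge plus Salmonella minus control they were VPS18, VPS33A, VPS26B and the partner NAPA. The looser symbol rule added 8 symbols, for 70 in all.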
